A study of Mus musculus with 36 samples.

Results

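Cholesterol efflux and oxysterol genes were followed through RNA-seq of RAW264.7, a line of mouse macrophages. They are 10 genes chosen by name, Abca1, Abcg1, Nr1h2, Nr1h3, Mylip, Ch25h, Apoe, Lpl, Lpcat3 and Cd36, out of 49568 gene names in the count tables. All 10 names were found in both tables. Of these genes, 9 passed the filter on low counts in each series, and Ch25h did not, since it had a count of 0 in all 36 libraries.

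Macrophages take up lipoproteins and their lipids through scavenger receptors such as Cd36, and they give cholesterol back through the transporters Abca1 and Abcg1. When cholesterol accumulates, part of it is oxidised to oxysterols, which bind the liver X receptors, LXRα (Nr1h3) and LXRβ (Nr1h2). These nuclear receptors pair with retinoid X receptors and switch on the transporters, the ubiquitin ligase Mylip, the apolipoprotein Apoe, the lipase Lpl and the phospholipid remodelling enzyme Lpcat3. Ch25h makes an oxysterol and is known as an interferon-induced gene of macrophages.

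The peptides come from the HLA-DRβ chain, which is human, and were given to the mouse cells at 100 µg/ml. 65–79*SE carries the shared epitope and 65–79*PE the protective epitope, named for opposite associations of HLA-DRB1 alleles with rheumatoid arthritis. In the IFNγ series, peptide libraries were labelled 65–79*SE with IFNγ or 65–79*PE with IFNγ (cytokine at 5 ng/ml), and in the Il-4 series 65–79*SE with Il-4 or 65–79*PE with Il-4 (also 5 ng/ml). Each series had its own PBS group, every group had 6 libraries, treatment lasted 72 h, and no genetic change was named. All libraries come from a single immortalised line. The labels name the replicates 1–3 and 4–6 of each group by different schemes, so these are given apart throughout. The study's legends speak of 6 biological replicates in separate experiments. They do not say which libraries belong to which experiment, so p-values may in part measure technical spread.

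Total counts were 27.99 to 33.83 M per library in IFNγ replicates 1–3, 20.67 to 63.16 M in IFNγ replicates 4–6, 23.31 to 26.61 M in Il-4 replicates 1–3 and 17.05 to 30.64 M in Il-4 replicates 4–6. The 8 macrophage markers summed to 3510 to 10200 CPM (counts scaled to the library size by TMM), against 0 to 1.25 CPM for 4 fibroblast markers and 0 to 0.118 CPM for 5 adipocyte and hepatocyte markers, of which Adipoq and Ttr were at 0 in every library. The label sets differed in composition: histone genes took 54.3 to 164 CPM in replicates 1–3 and 2600 to 14500 CPM in replicates 4–6. Protein-coding genes took 85.1 to 85.7% of counts in IFNγ replicates 1–3 but 62.1 to 69.8% in IFNγ replicates 4–6. The part of these differences in the results was not tested.

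The cytokine label was checked with 10 IFNγ response genes and 10 Il-4 response genes. In the IFNγ series the IFNγ response summed to 652 to 869 CPM in the PBS libraries, 4130 to 4480 CPM with 65–79*SE in replicates 1–3 and 4450 to 5800 CPM with 65–79*PE. The 3 libraries labelled 65–79*SE with IFNγ in replicates 4–6 held 459 to 546 CPM, below every PBS library of their series, and thus go against their label. The Il-4 response summed to 4.72 to 7.06 CPM in the PBS libraries of the Il-4 series and to 57.2 to 181 CPM in its peptide libraries. For the IFNγ response, the PBS libraries of the IFNγ series stood at levels like the 224 to 993.7 CPM in PBS libraries of the Il-4 series. That list was also higher in the peptide libraries of Il-4 replicates 1–3. It summed there to 1470 to 2030 CPM with 65–79*SE and 1470 to 1630 CPM with 65–79*PE, against 837 to 994 CPM with PBS. The PBS libraries of each series thus lay far below the peptide libraries that showed the response of their cytokine. In each comparison against PBS whose peptide libraries showed that response, the cytokine and the peptide therefore cannot be told apart. The label of the 3 libraries that lacked the IFNγ response names both, and whether they were given IFNγ was not tested. Markers of osteoclasts, which RAW264.7 cells can become, summed to 59.7 to 128 CPM in the PBS libraries of the IFNγ series and to 12.3 to 46.4 CPM in its peptide libraries. The Il-4 series showed no such fall. In its replicates 1–3 they summed to 98.3 to 253 CPM with PBS, 193 to 237 with 65–79*SE and 126 to 234 with 65–79*PE. In its replicates 4–6 the sums were 43.3 to 67, 62.7 to 69.4 and 55.7 to 61.8 CPM in the same order. The 4 markers of dendritic cells summed to 56.4 to 90.2 CPM with 65–79*SE and 32.6 to 90.1 CPM with 65–79*PE in Il-4 replicates 1–3, against 6.17 to 10 CPM with PBS. In Il-4 replicates 4–6 they summed to 17.1 to 24.5, 14.1 to 19.7 and 3.84 to 5.12 CPM in the same order of groups. They were also above PBS in the IFNγ series, and between the peptides they stood in the same order as Cd36 (described below), at 18 to 19.5 CPM with 65–79*SE and 9.46 to 12.4 CPM with 65–79*PE in replicates 1–3 (PBS 5.99 to 6.98) and at 7.91 to 9.16 and 18.2 to 23.3 CPM in replicates 4–6 (PBS 4.74 to 5.44). The part of either list in the changes below was not tested.

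Per kilobase of exon, the levels in the PBS libraries of IFNγ replicates 1–3 fell into a high and a low group. The high group held Cd36 (21.3 ± 5.19 CPM per kb, SD, n = 3), Nr1h2 (18.3 ± 1.84), Lpl (17.3 ± 1.66), Abcg1 (17 ± 0.548) and Lpcat3 (11.7 ± 0.196). The low group held Nr1h3 (2.24 ± 0.0809), Mylip (1.64 ± 0.0793), Apoe (1.45 ± 0.146) and Abca1 (1.10 ± 0.0941), with Ch25h at 0. Neighbours from Cd36 to Abcg1 lay within 1 SD of each other. The step from Abcg1 to Lpcat3 and the step from Lpcat3 to Nr1h3 were larger than the spread of the 3 libraries.

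**Figure D1:**
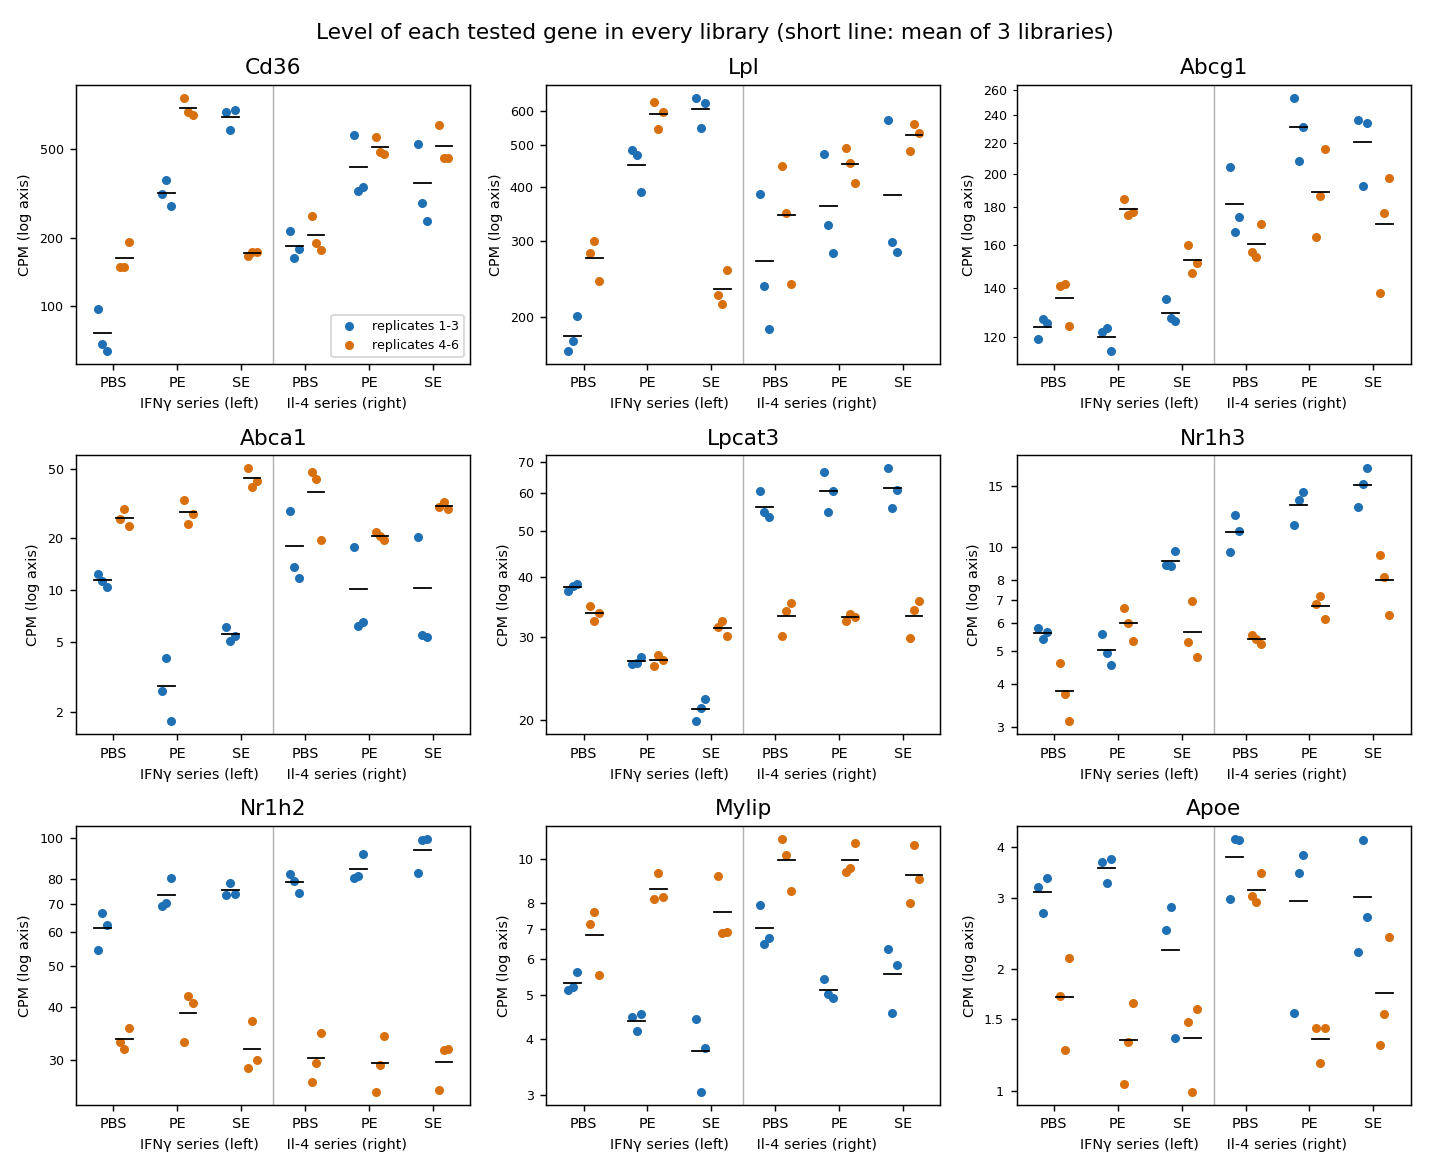
CPM of the 9 tested genes (log axis) in each of the 36 libraries, by group and series, with replicates 1–3 in blue, replicates 4–6 in orange and a short line at the mean of 3 libraries. In the IFNγ series the orange SE points of Cd36 and Lpl lie with the PBS points, while the blue SE points lie above them.

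For 65–79*SE with IFNγ against PBS, 5 of the 9 tested genes passed the test in replicates 1–3, Cd36, Lpl and Nr1h3 higher and Abca1 and Lpcat3 lower. A call needed a Benjamini-Hochberg adjusted p under 0.05 and a fold change over 1.5 in edgeR's quasi-likelihood test, and 21.2% of the 16845 genes tested met both. In replicates 4–6, where these libraries lacked the IFNγ response, 1 of 9 passed (Abca1, higher), beside 2.04% of all genes. For 65–79*PE with IFNγ against PBS, 3 of 9 passed in replicates 1–3 (Cd36 and Lpl higher, Abca1 lower, beside 18.5% of all genes) and 3 of 9 in replicates 4–6 (Cd36, Lpl and Nr1h3 higher, beside 11.2%). The median log2 change of the 9 genes in these 4 comparisons was 0.06, 0.07, -0.05 and 0.35, beside medians over all genes of -0.044, -0.003, -0.043 and -0.001. The comparisons of each peptide with PBS share the PBS libraries.

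Cd36, the scavenger receptor for oxidised LDL and long-chain fatty acids (ENSMUSG00000002944.15, chr5:17781690-17888801, minus strand, GRCm38), had the widest range of the members in CPM. In IFNγ replicates 1–3 it stood at 97.9, 68.25 and 63.56 CPM with PBS, at 315.2, 361.3 and 279.7 CPM with 65–79*PE and at 726.9, 604.0 and 737.0 CPM with 65–79*SE. The 3 groups did not overlap. It rose 9-fold with 65–79*SE (log2 change 3.17, SE 0.15, adjusted p = 1.13e-12) and 4.16-fold with 65–79*PE (2.06, SE 0.14, adjusted p = 8.82e-10), and was 2.16-fold higher with 65–79*SE than with 65–79*PE (1.11, SE 0.14, adjusted p = 1.32e-05).

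In IFNγ replicates 4–6, Cd36 was at 149.2, 149.4 and 192.3 CPM with PBS, 840.2, 726.8 and 704.2 CPM with 65–79*PE and 167.3, 174.5 and 174.7 CPM with 65–79*SE. Here the 65–79*PE libraries stood far above the rest, and the 65–79*SE libraries lay within the PBS range. The log2 change was 2.21 with 65–79*PE (SE 0.14, adjusted p = 2.78e-10) and 0.07 with 65–79*SE (SE 0.14, adjusted p = 0.838). Cd36 was lower with 65–79*SE than with 65–79*PE here, with a log2 change of -2.14 (SE 0.14, adjusted p = 4.62e-10), but the former libraries lacked the IFNγ response (459 to 546 CPM) and the latter showed it (4450 to 4890 CPM), so this contrast does not set the peptides side by side under like treatment.

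Lpl, the lipase that releases fatty acids from lipoprotein triglycerides (ENSMUSG00000015568.16, chr8:68880491-68907448, plus strand), followed the same order. In IFNγ replicates 1–3 it was at 166.5, 175.8 and 200.2 CPM with PBS, 488.5, 473.8 and 389.9 CPM with 65–79*PE and 644.8, 548.2 and 626.0 CPM with 65–79*SE. For replicates 4–6 the levels were 280.7, 299.2 and 242.1 CPM with PBS, 628.3, 544.1 and 596.5 CPM with 65–79*PE and 224.5, 214.5 and 256.3 CPM with 65–79*SE. Every peptide library with an IFNγ response thus lay above every PBS library, and the 65–79*SE libraries without one overlapped PBS.

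Against PBS, Lpl rose 3.35-fold with 65–79*SE in replicates 1–3 (log2 change 1.75, SE 0.10, adjusted p = 6.6e-11), and its log2 change in replicates 4–6 was -0.24 (SE 0.10, adjusted p = 0.201). With 65–79*PE it rose 2.49-fold in replicates 1–3 (adjusted p = 5.54e-09) and 2.15-fold in replicates 4–6 (adjusted p = 8.24e-08). Both label sets thus gave a rise with 65–79*PE, and only replicates 1–3 gave one with 65–79*SE.

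**Figure D2:**
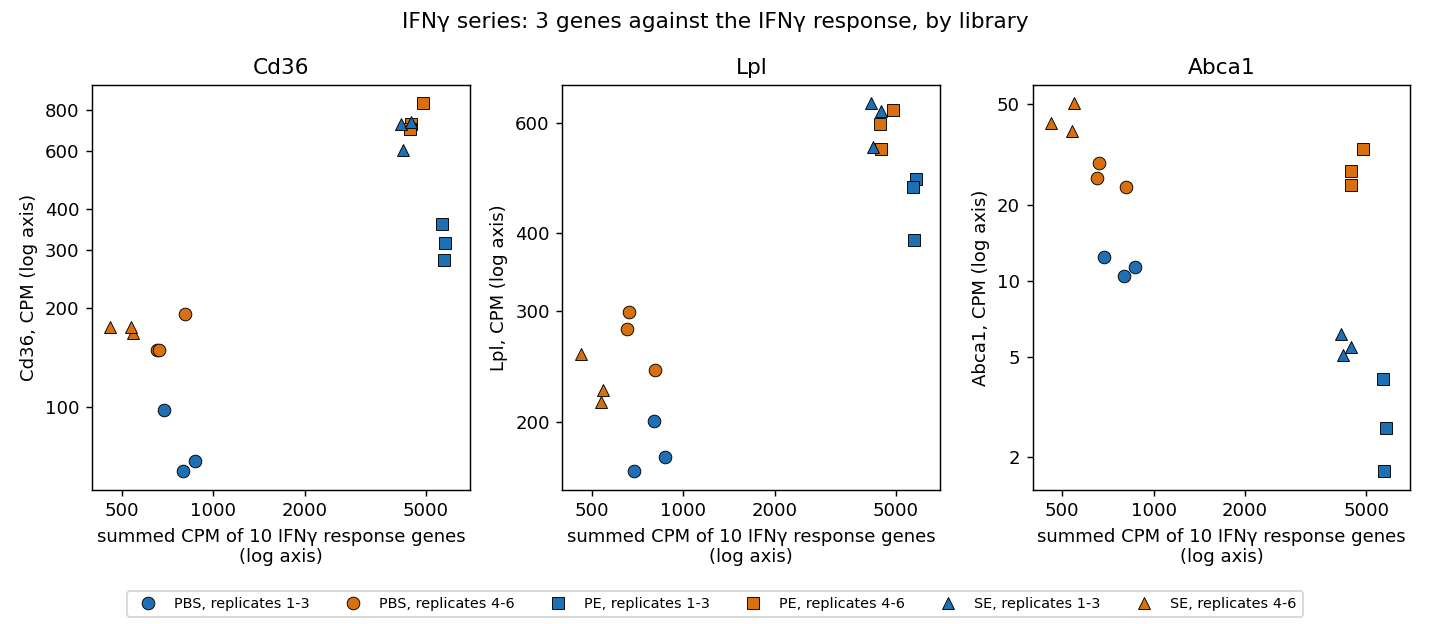
CPM of Cd36, Lpl and Abca1 in each library of the IFNγ series (vertical, log axis) against the summed CPM of 10 IFNγ response genes (horizontal, log axis). The 3 SE libraries of replicates 4–6 (orange triangles, 459 to 546 CPM of IFNγ response) sit with PBS for Cd36 and Lpl and above PBS for Abca1.

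Abca1, the transporter that loads cholesterol and phospholipid onto lipid-poor apolipoproteins (ENSMUSG00000015243.4, chr4:53030787-53159895, minus strand), is the standard example of an LXR target. The 250 bases upstream of its RefSeq start, of the 8 members with an entry in the RefSeq promoter table, are shown because the change of this gene with each peptide differed between the label sets and because its promoter holds an LXR element. The letters searched are those of the element known from Abca1, so a match in this gene was set by the choice of letters. The sequence is from chr4:53159896-53160145 of GRCm38.p6, minus strand, read toward the gene, and the capitals mark an E-box (CACGTG) and the LXR element letters:
Abca1 promoter: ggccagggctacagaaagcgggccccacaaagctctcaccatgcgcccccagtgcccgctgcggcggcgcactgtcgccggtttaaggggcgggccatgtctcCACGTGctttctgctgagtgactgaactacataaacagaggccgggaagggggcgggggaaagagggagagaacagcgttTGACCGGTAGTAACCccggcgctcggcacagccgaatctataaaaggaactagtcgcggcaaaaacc
The E-box lay at -147 to -142 from the start and was found in 6.02% of 32851 promoters. The LXR element letters, TGACCG and TAACC with 4 bases between them, were searched on both strands, lay at -67 to -53 and were found in 0.0122% of promoters (4 in all). The direct repeat of AGGTCA with 4 bases between its copies was in 0.0152% (5 in all) and in none of the 11 promoters of members. The motifs do not overlap. These are matches of letters, and binding was not measured.

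Abca1 fell in IFNγ replicates 1–3. It stood at 12.35, 11.36 and 10.40 CPM with PBS, at 6.148, 5.081 and 5.458 CPM with 65–79*SE and at 2.611, 4.073 and 1.755 CPM with 65–79*PE, with no overlap between groups. It fell 2.04-fold with 65–79*SE (log2 change -1.03, SE 0.18, adjusted p = 0.000109) and 4.03-fold with 65–79*PE (-2.01, SE 0.20, adjusted p = 1.21e-07), and was 1.97-fold higher with 65–79*SE than with 65–79*PE (0.98, SE 0.21, adjusted p = 0.00233). Dropping replicate 1 ended this last call (0.85, adjusted p = 0.0566).

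In IFNγ replicates 4–6, Abca1 levels were higher in every group. They were 25.59, 29.12 and 23.48 CPM with PBS, 33.11, 24.01 and 27.26 CPM with 65–79*PE and 50.40, 39.18 and 42.31 CPM with 65–79*SE. The 65–79*PE libraries overlapped PBS (log2 change 0.11, 95% interval -0.23 to 0.45, adjusted p = 0.684), whereas the 65–79*SE libraries, which lacked the IFNγ response, lay above PBS (0.76, SE 0.16, adjusted p = 0.0116) and above 65–79*PE (0.65, SE 0.16, adjusted p = 0.00418). Dropping replicate 4 or 6 ended the call against PBS (log2 changes of 0.63 and 0.69, adjusted p = 0.0681 and 0.148).

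Abcg1, which passes cholesterol to high-density lipoprotein (ENSMUSG00000024030.7, chr17:31057675-31117988, plus strand), did not follow Abca1. It was at 119.3, 126.8 and 125.3 CPM with PBS, 135.0, 127.2 and 126.0 CPM with 65–79*SE and 121.7, 123.4 and 114.8 CPM with 65–79*PE in IFNγ replicates 1–3. Both peptide groups overlapped PBS, and neither log2 change passed the test (0.06 with 65–79*SE, 95% interval -0.07 to 0.20, and -0.05 with 65–79*PE, SE 0.06). The 65–79*SE libraries all lay above the 65–79*PE libraries, by a log2 change of 0.11 (adjusted p = 0.262). Replicates 4–6 held 140.8, 141.4 and 124.3 CPM with PBS, 184.7, 175.5 and 177.5 CPM with 65–79*PE and 160.1, 146.5 and 151.0 CPM with 65–79*SE. The 65–79*PE libraries lay above PBS by a log2 change of 0.40 (SE 0.06, adjusted p = 6.74e-05), under the fold needed for a call.

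Nr1h3, which encodes LXRα and is itself an LXR target (ENSMUSG00000002108.10, chr2:91184061-91202834, minus strand), was low in every library. In IFNγ replicates 1–3 it was at 5.826, 5.422 and 5.668 CPM with PBS, 8.834, 8.827 and 9.724 CPM with 65–79*SE and 5.575, 4.920 and 4.558 CPM with 65–79*PE. Only the 65–79*SE libraries stood apart from PBS, and the gene rose 1.62-fold with 65–79*SE against PBS (log2 change 0.69, SE 0.14, adjusted p = 0.000554) and was 1.82-fold higher than with 65–79*PE (0.86, SE 0.15, adjusted p = 0.000311). Replicates 4–6 held 4.598, 3.744 and 3.118 CPM with PBS, 6.664, 6.034 and 5.330 CPM with 65–79*PE and 5.287, 6.952 and 4.806 CPM with 65–79*SE. Both peptide groups lay above PBS here: the rise with 65–79*PE was called (0.64, SE 0.15, adjusted p = 0.00357, but under 1.5-fold, 0.56, without replicate 6), and the log2 change with 65–79*SE was 0.55 (SE 0.16, adjusted p = 0.0504). Nr1h3 shares 34 exon bases with Gm13783 on the same strand.

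Nr1h2, which encodes LXRβ (ENSMUSG00000060601.13, chr7:44549616-44553951, minus strand), was the more abundant receptor per kilobase in each group and label set. In IFNγ replicates 1–3 it was at 54.54, 66.73 and 62.41 CPM with PBS, 73.50, 78.45 and 73.87 CPM with 65–79*SE and 69.28, 70.33 and 80.37 CPM with 65–79*PE. Both peptide groups lay above PBS by less than 1.5-fold, with log2 changes of 0.30 (SE 0.10, adjusted p = 0.0214) and 0.26 (SE 0.10, adjusted p = 0.045). Over replicates 4–6 it ran from 28.67 to 42.40 CPM, and neither peptide passed the test against PBS.

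Mylip, a ubiquitin ligase of lipoprotein uptake (ENSMUSG00000038175.10, chr13:45389742-45412022, plus strand), was at 5.126, 5.210 and 5.606 CPM with PBS and 4.431, 3.049 and 3.815 CPM with 65–79*SE in IFNγ replicates 1–3. The 65–79*SE libraries were all lower, by a log2 change of -0.49 (SE 0.15, adjusted p = 0.0128) that was under the fold needed. No other comparison with PBS in the IFNγ series had an adjusted p under 0.05 for Mylip. Its log2 change in replicates 4–6 was 0.17 with 65–79*SE and 0.35 with 65–79*PE.

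Lpcat3, which places polyunsaturated fatty acids into membrane phospholipids, is a gene the study named from these libraries, so its direction here is not independent evidence (ENSMUSG00000004270.13, chr6:124663027-124704418, plus strand). In IFNγ replicates 1–3 it was at 37.45, 38.29 and 38.71 CPM with PBS, 26.29, 26.43 and 27.12 CPM with 65–79*PE and 19.88, 21.25 and 22.20 CPM with 65–79*SE. The groups were narrow and did not overlap, and it fell 1.81-fold with 65–79*SE (log2 change -0.85, SE 0.06, adjusted p = 1.3e-09), while with 65–79*PE the change of -0.52 (SE 0.06, adjusted p = 1.54e-06) was under the fold needed. Replicates 4–6 held 34.84, 32.32 and 33.57 CPM with PBS, 26.03, 27.43 and 26.80 CPM with 65–79*PE and 31.49, 32.28 and 30.02 CPM with 65–79*SE. The 65–79*PE libraries were again all lower (-0.33, SE 0.06, adjusted p = 0.000497), and with 65–79*SE the change was -0.11 (adjusted p = 0.387). Lpcat3 shares 334 exon bases with Emg1 on the opposite strand, and the strand setting of the counting is not given in the sources used here.

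Apoe, the apolipoprotein that macrophages secrete with cholesterol (ENSMUSG00000002985.16, chr7:19696109-19699188, minus strand), was barely expressed, at 0.9932 to 3.737 CPM over the IFNγ series. Neither peptide passed the test against PBS in either label set. Its largest difference there was 65–79*SE against 65–79*PE in replicates 1–3, where 2.492, 2.845 and 1.351 CPM stood below 3.668, 3.253 and 3.737 CPM (log2 change -0.68, SE 0.24, adjusted p = 0.0524). DESeq2 called this difference (-0.67, adjusted p = 0.0305).

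Ch25h, the enzyme that hydroxylates the side chain of cholesterol (ENSMUSG00000050370.5, chr19:34473778-34475164, minus strand), had no count in any library. A count of 0 allows up to 3 counts, for counting error only. These amount to between 0.0475 and 0.145 CPM per IFNγ library and between 0.0979 and 0.176 CPM per Il-4 library. In the annotation it shares 159 exon bases with Gm26902, a non-coding RNA on the opposite strand that starts at a shared promoter (chr19:34474808-34481546), and reads over shared bases may not have been assigned. Gm26902 was looked at after its values were seen. In IFNγ replicates 1–3 it had 0, 2 and 3 counts with PBS, 25, 32 and 29 counts with 65–79*SE and 19, 33 and 18 counts with 65–79*PE. Replicates 4–6 had 1, 1 and 5 counts with PBS, 1, 0 and 0 counts with 65–79*SE and 14, 15 and 16 counts with 65–79*PE. The libraries with an IFNγ response thus held the higher counts, all under 1 CPM, and no test is given, since this RNA passed the count filter through those groups.

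For 65–79*SE against 65–79*PE in the IFNγ series, 3 of 9 genes passed in replicates 1–3, Cd36, Nr1h3 and Abca1, all higher with 65–79*SE, beside 5.33% of all genes. In replicates 4–6, 3 of 9 passed, Cd36 and Lpl lower and Abca1 higher, beside 13.9%. Abca1 was the only member called in the same direction in both label sets, and in replicates 4–6 the comparison sets libraries without the IFNγ response against libraries with it. Lpl differed by a log2 change of 0.43 in replicates 1–3 (SE 0.10, adjusted p = 0.00561), under the fold needed, and by -1.35 in replicates 4–6 (SE 0.10, adjusted p = 4.82e-09).

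**Figure D3:**
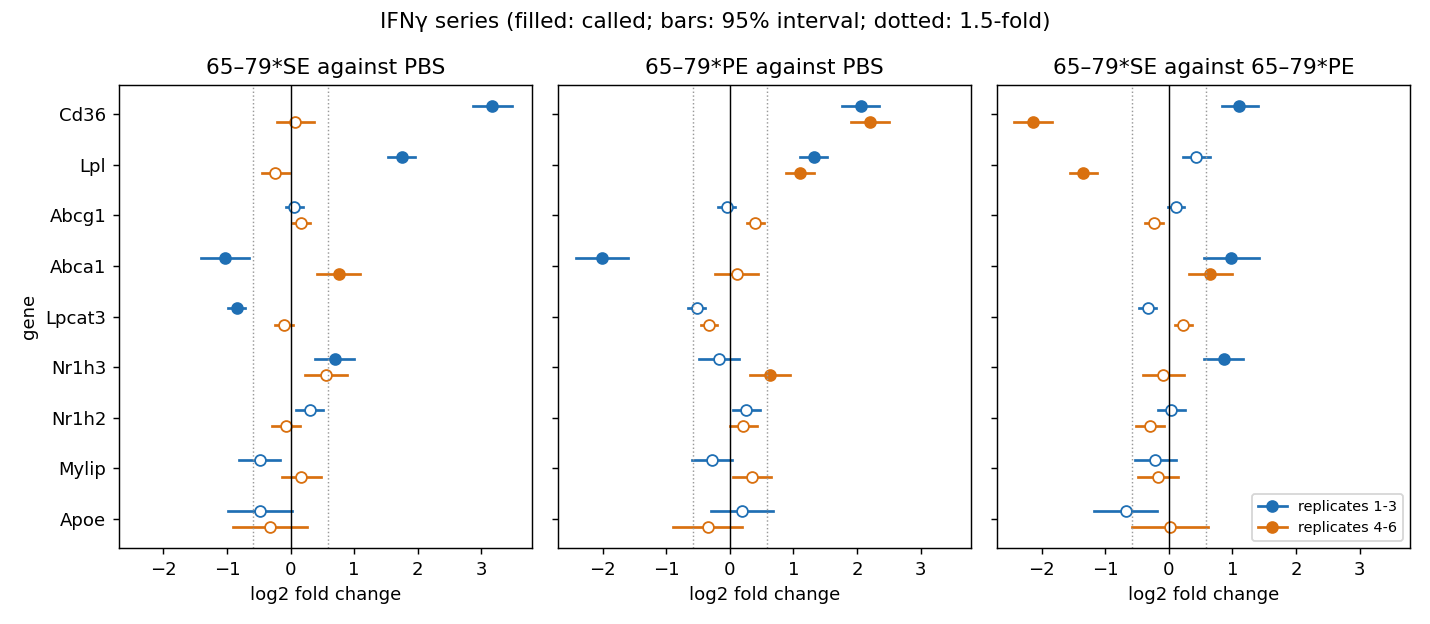
Log2 fold change of each gene in the IFNγ series with its 95% interval, replicates 1–3 in blue and 4–6 in orange, with filled points for calls and dotted lines at 1.5-fold. For Cd36 the 65–79*SE points lie at 3.17 and 0.07 and the 65–79*PE points at 2.06 and 2.21.

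The difference of each change between the label sets was tested directly, at an adjusted p under 0.05 with no minimum fold. For 65–79*SE against PBS in the IFNγ series it passed for 5 of 9 members, Cd36 (a log2 change 3.10 higher in replicates 1–3), Lpl (1.99 higher), Abca1 (-1.79), Lpcat3 (-0.75) and Mylip (-0.67), beside 35.7% of all genes. That of Mylip was lost without replicate 2, 3, 4 or 6 (adjusted p = 0.091, 0.0721, 0.0908 and 0.0736). For 65–79*PE against PBS, which does not use the libraries that lacked the response, it passed for 3 of 9, Abca1 (-2.12, SE 0.26, adjusted p = 6.75e-05), Nr1h3 (-0.81, SE 0.21, adjusted p = 0.0196) and Abcg1 (-0.45, SE 0.09, adjusted p = 0.00375), beside 11.5%. The difference of Nr1h3 was lost without replicate 1, 2, 3, 5 or 6 (adjusted p = 0.0611, 0.054, 0.0995, 0.0658 and 0.0633) and that of Abcg1 without replicate 6 (-0.33, adjusted p = 0.0597). The change of Abca1 with 65–79*PE thus differed between the label sets, while for Cd36 and Lpl the rise with 65–79*PE was called in both. Between the peptides it passed for 5 of 9 members beside 28.8%. With the 3 libraries left out, the comparisons with 65–79*SE in replicates 4–6 have no value, and 5 members were called for 65–79*SE and 3 for 65–79*PE against PBS in replicates 1–3, 3 for 65–79*PE in replicates 4–6 and 3 between the peptides in replicates 1–3. In the same order, the share of all genes called ran from 3.5 to 23.5%, 9.26 to 20.3%, 5.83 to 13.1% and 2.8 to 6.38%. These ranges are over the alternatives that kept the fold, this one among them.

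In the Il-4 series, Cd36 was the only member called with 65–79*SE against PBS, 1 of 9 in replicates 1–3 beside 6.17% of the 14183 genes tested, and 1 of 9 in replicates 4–6 beside 2.21%. With 65–79*PE, 1 of 9 passed in replicates 1–3 beside 3.47% (Cd36), and 2 of 9 in replicates 4–6 beside 3.58% (Cd36 higher, Apoe lower). The median log2 change of the 9 genes was 0.26 and 0.00 with 65–79*SE and 0.11 and 0.00 with 65–79*PE in the respective label sets, beside medians over all genes of -0.068, -0.01, -0.066 and -0.007.

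Cd36 in Il-4 replicates 1–3 was at 215.1, 163.2 and 179.5 CPM with PBS, 524.2, 288.1 and 239.0 CPM with 65–79*SE and 574.6, 324.7 and 338.2 CPM with 65–79*PE. Replicates 4–6 held 250.9, 190.5 and 177.4 CPM with PBS, 636.4, 455.8 and 453.1 CPM with 65–79*SE and 564.4, 481.4 and 472.3 CPM with 65–79*PE. All peptide libraries lay above all PBS libraries of their label set, and the first library of each trio was the highest. It rose 1.88-fold (log2 change 0.91, SE 0.26, adjusted p = 0.0264) and 2.50-fold (1.32, SE 0.26, adjusted p = 0.00933) with 65–79*SE, and 2.22-fold (1.15, SE 0.26, adjusted p = 0.0152) and 2.45-fold (1.30, SE 0.26, adjusted p = 0.00686) with 65–79*PE. In replicates 1–3 the call with 65–79*SE was lost without replicate 2, 3 or 5 (0.95, 1.10 and 0.91, adjusted p = 0.202, 0.103 and 0.061) and that with 65–79*PE without replicate 2 or 3 (1.21 and 1.25, adjusted p = 0.0945 and 0.0847). Both were lost without replicate 5 in replicates 4–6 (1.35 and 1.28, adjusted p = 0.105 and 0.117). These fits hold no term for the replicate number. With such a term (the replicate block, see Abca1 below), both changes in replicates 1–3 were called. They were 0.84 (SE 0.12, adjusted p = 0.000712) with 65–79*SE and 1.10 (SE 0.12, adjusted p = 0.000103) with 65–79*PE.

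Abca1 varied widely within the Il-4 groups. In replicates 1–3 it was at 28.55, 13.59 and 11.82 CPM with PBS, 20.11, 5.505 and 5.360 CPM with 65–79*SE and 17.69, 6.196 and 6.548 CPM with 65–79*PE. Replicate 1 was the highest in all 3 groups, and each replicate number was lower with either peptide than with PBS. Same-numbered libraries of this label set deviated together over all genes (all 9 correlations over 0.1), so the fit with a replicate block applies: it called Abca1 lower with 65–79*SE (log2 change -0.94, SE 0.22, adjusted p = 0.00719) and with 65–79*PE (-0.89, SE 0.22, adjusted p = 0.0139), where the fit without the block gave -0.79 (SE 0.48, adjusted p = 0.294) and -0.82 (SE 0.48, adjusted p = 0.331). The block raised the count of called members in this label set from 1 to 2 for each peptide. The share of all genes called rose with it too for 65–79*PE, from 3.47 to 5.37%. For 65–79*SE that share was 6.17% without the block and at most 11.4% over the alternatives that kept the fold.

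In Il-4 replicates 4–6, Abca1 was at 47.60, 43.75 and 19.52 CPM with PBS, 30.04, 32.16 and 29.36 CPM with 65–79*SE and 21.50, 20.53 and 19.39 CPM with 65–79*PE. The third PBS library lay among the 65–79*PE libraries. The log2 changes were -0.27 with 65–79*SE (adjusted p = 0.773) and -0.85 with 65–79*PE (SE 0.47, adjusted p = 0.328), and neither passed. Of 9 correlations between same-numbered libraries here, 7 were over 0.1, short of pairing the label set as a whole. Those between PBS and 65–79*PE were all over 0.1, at 0.619, 0.229 and 0.689. A fit with the replicate block called the change with 65–79*PE (-0.80, adjusted p = 0.0168).

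Apoe was at 3.019, 2.933 and 3.460 CPM with PBS and 1.431, 1.171 and 1.430 CPM with 65–79*PE in Il-4 replicates 4–6, a fall of 2.34-fold (log2 change -1.23, SE 0.33, adjusted p = 0.0359). With 65–79*SE it was at 1.298, 1.545 and 2.392 CPM, all below PBS, with a log2 change of -0.86 (SE 0.32, adjusted p = 0.144). In replicates 1–3 the same gene ran from 2.984 to 4.196 CPM with PBS and from 1.554 to 3.820 CPM with 65–79*PE, which overlapped. The call in replicates 4–6 was lost without replicate 2, 3, 4, 5 or 6 in turn, with adjusted p of 0.0532, 0.062, 0.115, 0.297 and 0.142 and log2 changes of -1.18 to -1.28.

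The remaining Il-4 values did not pass the test in the fit without the block. With the block, which applies to replicates 1–3, none reached the fold needed there, but some had an adjusted p under 0.05. With 65–79*SE these were Nr1h3 (0.45, adjusted p = 0.00978), Lpl (0.50, 0.0198), Abcg1 (0.28, 0.0234) and Nr1h2 (0.25, 0.0465). With 65–79*PE they were Abcg1 (0.35, 0.0129), Lpl (0.45, 0.0409) and Mylip (-0.45, 0.0481). The values that follow are of the fit without the block. Nr1h3 lay above PBS in every 65–79*SE library of both label sets, at 13.04, 15.26 and 16.92 against 9.676, 12.35 and 11.11 CPM in replicates 1–3 (log2 change 0.45, SE 0.15, adjusted p = 0.0566) and at 9.446, 8.205 and 6.330 against 5.545, 5.419 and 5.240 CPM in replicates 4–6 (0.57, SE 0.16, adjusted p = 0.0611). Lpl was at 385.2, 236.2 and 187.4 CPM with PBS and 570.8, 298.8 and 281.9 CPM with 65–79*SE in replicates 1–3, which overlapped (0.51, adjusted p = 0.252), and its change in replicates 4–6 was 0.61 (SE 0.29, adjusted p = 0.235). Lpcat3, lower with both peptides in IFNγ replicates 1–3, was at 53.43 to 60.60 CPM with PBS and 54.77 to 67.82 CPM with the peptides in Il-4 replicates 1–3. Nr1h2 and Mylip ran from 25.2 to 99.7 and from 4.55 to 11.1 CPM over the series. The levels of Nr1h2 in replicates 1–3 (74.2 to 99.7 CPM) lay wholly above those in replicates 4–6 (25.2 to 34.7 CPM), and the label sets of Lpcat3 were likewise apart.

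No member differed between 65–79*SE and 65–79*PE with Il-4, 0 of 9 in each label set, and edgeR called 0% of all genes in both (571 and 1321 genes had an unadjusted p under 0.05, and DESeq2 called 0 and 46 genes). The intervals, from the fit without the replicate block, leave room for differences of some size. In replicates 1–3 the log2 difference was 0.03 for Abca1 (95% interval -1 to 1.05), -0.24 for Cd36 (-0.77 to 0.30) and 0.09 for Lpl (-0.51 to 0.69). The corresponding values in replicates 4–6 were 0.57 for Abca1 (-0.41 to 1.56) and 0.03 for Cd36 (-0.51 to 0.56). With the block, which applies to replicates 1–3, the differences there were -0.05 for Abca1 (SE 0.22), -0.26 for Cd36 (SE 0.12) and 0.05 for Lpl (SE 0.14). None of these passed. No change differed between the label sets in the Il-4 series for any member, beside 4.39% of all genes for 65–79*SE against PBS (0 of 9), 0.00705% for 65–79*PE against PBS (0 of 9, 1486 genes at an unadjusted p under 0.05) and 0% for 65–79*SE against 65–79*PE (0 of 9, 445 genes).

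**Figure D4:**
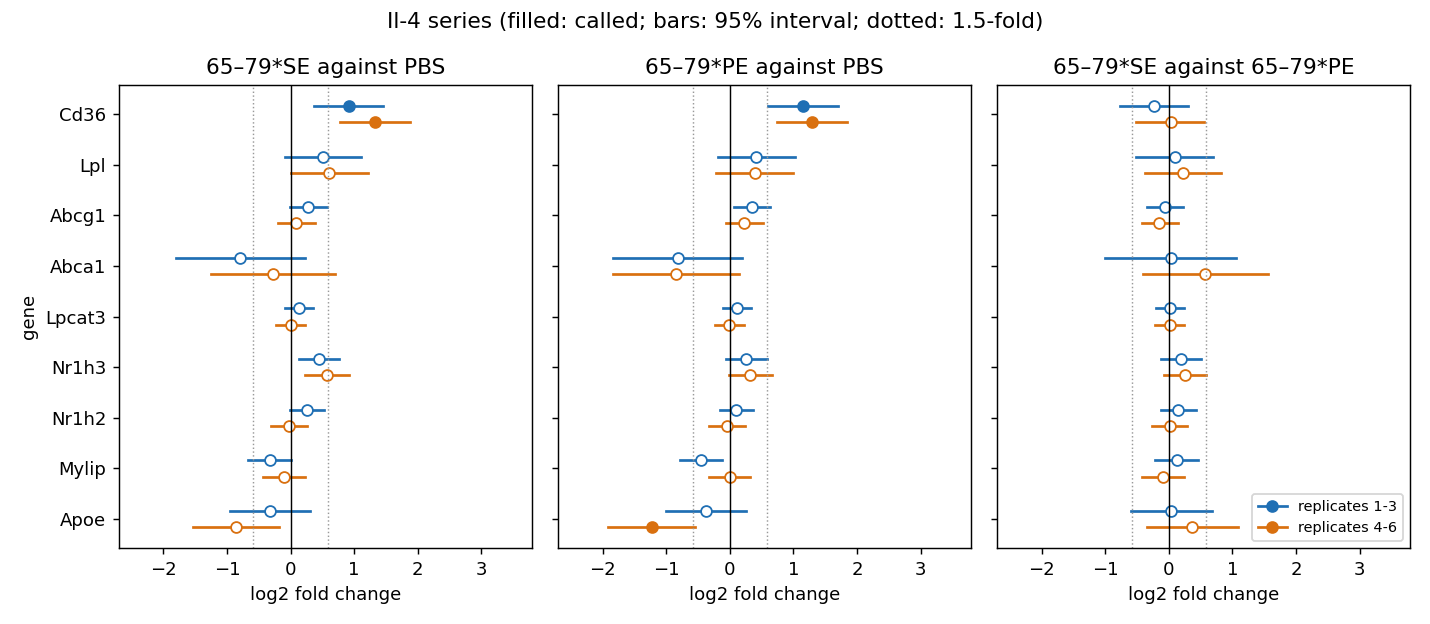
Log2 fold change of each gene in the Il-4 series with its 95% interval, replicates 1–3 in blue and 4–6 in orange, filled where called. Cd36 lies between 0.91 and 1.32 against PBS in all 4 cases, and no point is filled in the comparison of the peptides.

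The change with IFNγ was compared with that with Il-4 in a joint fit of 17201 genes, for 65–79*PE against PBS in both label sets and for 65–79*SE against 65–79*PE in replicates 1–3. For 65–79*PE against PBS, 2 of 9 members differed in replicates 1–3 beside 18.1% of all genes. Lpcat3 had a log2 change 0.64 lower with IFNγ (-0.64, SE 0.12, adjusted p = 0.000198) and Cd36 one that was 0.90 higher (SE 0.30, adjusted p = 0.0352), the latter lost without replicate 2, 3, 5 or 6 (adjusted p = 0.351, 0.216, 0.0875 and 0.0552). With the replicate block, which applies to the Il-4 libraries of this label set but not to the unpaired IFNγ libraries, 5 of 9 differed, with Abca1 (-1.16, adjusted p = 0.00702), Abcg1 (-0.41, adjusted p = 0.00632) and Lpl (0.85, adjusted p = 0.00215) added. The share of all genes that differed here was at most 28.1% over all alternatives, the block among them. In replicates 4–6, 1 of 9 differed beside 16% (Lpcat3, -0.39, SE 0.12, adjusted p = 0.0252), and the difference for Cd36 was 0.85 (SE 0.30, adjusted p = 0.0508), which passed with RLE, DESeq2, either other count filter, protein-coding genes only or the block (highest adjusted p = 0.0467). That of Lpcat3 was lost with no low count filter (-0.36, adjusted p = 0.321) and without replicate 4 or 5 (adjusted p = 0.223 and 0.118). For 65–79*SE against 65–79*PE, 1 of 9 differed beside 4.06%, Cd36, by 1.30 (SE 0.30, adjusted p = 0.011), lost without replicate 2 or 3 (1.54 and 1.12, adjusted p = 0.0508 and 0.246). With the block 4 of 9 differed, with Abca1 (1.01, adjusted p = 0.0475), Nr1h3 (0.63, adjusted p = 0.0173) and Lpcat3 (-0.40, adjusted p = 0.00808) added. Here the share of all genes was at most 8.66% over all alternatives.

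The wider pathway was counted in 6 lists of neighbouring genes, with both directions given as higher and lower, to be read against the share of all genes called in the same comparison. With 65–79*SE and IFNγ against PBS in replicates 1–3, that share was 21.2% (1850 genes higher and 1723 lower). Here 2 of 7 tested other LXR targets were higher and 3 lower, among them Scd2 (stearoyl-CoA desaturase, log2 change -1.99, SE 0.14, adjusted p = 7.64e-10) on the lower side and Tgm2 (a transglutaminase, 1.16, SE 0.10, adjusted p = 8.53e-09) on the higher. Of 14 oxysterol enzymes and sensors, 1 was higher and 4 lower. Of 15 LXR partners and cofactors 2 were higher and 1 lower, the latter Rxra, the retinoid X receptor that pairs with LXR (-0.59, SE 0.13, adjusted p = 0.000712). These lists moved in both directions, as the members did.

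In the same comparison, 2 of 16 genes of lipid and lipoprotein uptake were higher and 4 lower. Cxcl16, a scavenger receptor for oxidised lipoprotein as well as a chemokine, rose by 2.11 (SE 0.16, adjusted p = 2.08e-09). Of 19 genes of cholesterol storage and transport 3 were higher and 3 lower, with Stard4, a cholesterol carrier, at -1.70 (SE 0.10, adjusted p = 3.61e-11) and Tspo, of the outer mitochondrial membrane, at 0.80 (SE 0.07, adjusted p = 1.15e-08). Of 14 phospholipid remodelling genes 3 were higher and 4 lower, with the acyltransferase Lpcat1 (-1.19, SE 0.15, adjusted p = 1.6e-06) falling beside Lpcat3.

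The counts for 65–79*SE were lower in IFNγ replicates 4–6, where 2.04% of all genes were called, with 2 other LXR targets higher, 2 uptake genes higher and 1 transport gene lower over the 6 lists. Tgm2 was at 0.72 (SE 0.10, adjusted p = 0.000827) and Cxcl16 at 0.98 (SE 0.17, adjusted p = 0.00375). With 65–79*PE (18.5 and 11.2% of all genes called), Gpr183, the receptor that guides cells toward oxysterols, fell in both label sets (-2.66 and -1.70, SE 0.22 and 0.21, adjusted p = 1.01e-08 and 5.1e-06), as did Rxra (-0.82 and -0.86, SE 0.13 in both, adjusted p = 3.44e-05 and 4.7e-05), and Cxcl16 rose in both (0.71 and 1.81, SE 0.16 and 0.17, adjusted p = 0.00117 and 7.09e-08). Lrp1, the receptor for lipoprotein remnants, fell by 1.30 on the log2 scale in replicates 1–3 (SE 0.15, adjusted p = 1.42e-06). Gpr183 and Lrp1 also fell with 65–79*SE in IFNγ replicates 1–3 (-2.36 and -0.91, SE 0.21 and 0.15, adjusted p = 2.43e-08 and 6.23e-05).

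Between the peptides with IFNγ in replicates 1–3 (5.33% of all genes called), Scd2 (-1.30, SE 0.14, adjusted p = 2.96e-06) was lower with 65–79*SE, and Tgm2 (0.82, SE 0.10, adjusted p = 7.79e-06) and Cxcl16 (1.40, SE 0.16, adjusted p = 4.15e-06) were higher. Of the 16 uptake genes 5 were higher and 2 lower, and none of the 15 partners and cofactors was called. Tgm2 (-1.24, SE 0.10) and Cxcl16 (-0.83, SE 0.16) were lower with 65–79*SE in replicates 4–6 (adjusted p = 8.65e-09 and 0.000571), where its libraries lacked the IFNγ response that those with 65–79*PE showed.

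With Il-4 the shares of all genes called against PBS were 6.17 and 2.21% for 65–79*SE and 3.47 and 3.58% for 65–79*PE, and edgeR called no gene between the peptides, as given above. The LXR target Arl4c rose with 65–79*SE (1.62 and 1.14, SE 0.24 and 0.25, adjusted p = 0.000731 and 0.0195) and with 65–79*PE (1.82 and 1.53, SE 0.24 and 0.25, adjusted p = 0.000233 and 0.00149) in replicates 1–3 and 4–6. The acyltransferase Lpcat2 fell in the same 4 cases, by log2 changes of -1.05 and -0.74 with 65–79*SE (SE 0.13 in both, adjusted p = 0.00013 and 0.00516) and -1.16 and -0.82 with 65–79*PE (SE 0.13 in both, adjusted p = 5.1e-05 and 0.00152). In each of the 4 comparisons 0 of 15 partners and cofactors were higher and 3 were lower. No oxysterol enzyme or sensor was called, of 13 tested.

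As a description, the genes whose log2 CPM, centred within each label set, was most like that of Abca1 over the 18 libraries of the IFNγ series were Son, Ubp1 and Gabpa (Pearson r of 0.943, 0.939 and 0.938). In the Il-4 series they were I830077J02Rik, Gadd45a and Btbd9 (0.921, 0.915 and 0.887). Only genes with a mean of at least 10 CPM were ranked. The libraries of a series share groups and differ in depth, and the values carry no test.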

How the data were processed

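Libraries were made with a TruSeq kit, stranded and for mRNA per the study's methods but named without these words in the labels, and sequenced as single-end reads of 100 bp. Uniquely aligned reads were assigned by the authors to GENCODE gene models of GRCm38.p5 with featureCounts, per the methods and processing notes, and the deposited values were raw, whole-number counts, 18 libraries in each of 2 tables. The aligner and the strand setting are not given in the sources used here. The study itself tested with DESeq2 1.16.1 in R 3.4.1.

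Counts were fitted here in R 4.3.3 with edgeR 4.0.16 (quasi-likelihood test, TMM, filterByExpr), with 1 mean for each group and label set of 3 libraries. The filter left 16845 genes with IFNγ, 14183 with Il-4 and 17201 jointly. Each fit held the 18 libraries of a series, or all 36 for cytokine differences. P-values were Benjamini-Hochberg adjusted over all genes tested. Within a label set a call needed an adjusted p under 0.05 and a fold change over 1.5, and for differences between changes an adjusted p under 0.05. CPM are TMM scaled and intervals are 95%. Likeness to Abca1 used log2 CPM with a prior count of 2. Positions and exon lengths are of GENCODE M21 (GRCm38), matched by symbol (10 of 10), a later release than the one counted on. The promoter is from RefSeq (GRCm38.p6). The scripts were tested on simulated data.

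Members and gene lists were chosen with earlier results of these data known. The named list genes were, in each list and comparison, those called with a mean of at least 10 CPM and the largest rise or fall. Arl4c with 65–79*SE in Il-4 replicates 4–6 lay below that mean and was named after its values were seen. Gpr183 and Lrp1 with 65–79*SE in IFNγ replicates 1–3 did not have the largest fall of their lists. They were named there beside their values with 65–79*PE. Some genes of the lists are counted but not reported here by name. Same-numbered libraries were checked for pairing by the correlation of their deviations from the group means, over genes with a mean above 10 CPM on the log2 scale. Only Il-4 replicates 1–3 had all 9 correlations over 0.1 (0.158 to 0.675) and were taken as paired. Of these 9, 7 were highest for the own number. Alternatives were RLE size factors, DESeq2 1.42.0, other count filters (none, or at least 10 counts in every library), protein-coding genes only, each label set alone, the label set as an additive term, a replicate block, no minimum fold, each replicate left out and, added after seeing the data, the 3 IFNγ libraries with 65–79*SE of replicates 4–6 left out. Floors cover counting error only, as reads carried no molecular identifiers, while the 95% intervals come from the fit and include the spread between libraries.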

Additional observations from a re-analysis of the deposited data

Results flagged for a closer look

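Of 81 differences tested between label sets or cytokines, 17 passed for a member. Between the label sets of the IFNγ series, the log2 change with 65–79*SE against PBS in replicates 1–3 minus that in replicates 4–6 was 3.10 for Cd36, 1.99 for Lpl, -1.79 for Abca1, -0.75 for Lpcat3 and -0.67 for Mylip. The change with 65–79*PE against PBS differed by -2.12 for Abca1, -0.81 for Nr1h3 and -0.45 for Abcg1. That of 65–79*SE against 65–79*PE differed by 3.25 for Cd36, 1.77 for Lpl, 0.95 for Nr1h3, 0.34 for Abcg1 and -0.56 for Lpcat3. The comparisons with 65–79*SE use the 3 libraries of replicates 4–6 that held 459 to 546 CPM of the IFNγ response, against 4130 to 4480 CPM in replicates 1–3.

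Between the cytokines, the log2 change with IFNγ minus that with Il-4 was -0.64 for Lpcat3 and 0.90 for Cd36 with 65–79*PE against PBS in replicates 1–3, -0.39 for Lpcat3 in replicates 4–6, and 1.30 for Cd36 with 65–79*SE against 65–79*PE in replicates 1–3.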

How the results depend on the processing

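Of the member values recomputed under the alternatives, 2501 stayed on their side of the threshold (those not called may have changed sign), 89 passed it newly, 44 no longer passed and 3 passed in 1 fit and changed sign. With the label set as an additive term, which gives both label sets 1 common change, Abca1 changed sign in IFNγ replicates 4–6 (-0.21 for 65–79*SE and -0.96 for 65–79*PE against PBS), as did Cd36 for 65–79*SE against 65–79*PE in replicates 1–3 (-0.22). The count of called members then became 2 in both label sets for 65–79*SE against PBS with IFNγ, beside 3.5% of all genes. It became 0 in both for 65–79*SE against 65–79*PE with IFNγ, beside 3.06%, and 2 for 65–79*PE in Il-4 replicates 1–3. With no minimum fold the count was 5 and 5 for 65–79*PE against PBS and 5 and 6 between the peptides with IFNγ. In the same order, 8074, 5999, 5116 and 6876 of 16845 genes had an unadjusted p under 0.05. The share of all genes with an adjusted p under 0.05 and no minimum fold is not given here.

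In the Il-4 series, counts of called members against PBS moved as follows. With no low count filter they were 2 and 3 for 65–79*SE in replicates 1–3 and 4–6 and 2 for 65–79*PE in replicates 1–3. The replicate block gave the same 2, 3 and 2. In replicates 4–6 the numbers fell short of pairing the libraries (7 of 9 correlations over 0.1, from -0.0965 to 0.759). There 7 of 9 were highest for the own number, as in replicates 1–3. In replicates 4–6 the block called Apoe (-0.87) and Lpl (0.65) with 65–79*SE and Abca1 (-0.80) with 65–79*PE. DESeq2 and the minimum of 10 counts gave 2 for 65–79*SE in replicates 4–6. Over the alternatives that kept the fold, the share of all genes called with 65–79*SE ran from 0.726 to 11.4% in replicates 1–3. It ran from 0.418 to 5.24% in replicates 4–6. With 65–79*PE the shares ran from 0.637 to 5.37% and from 0.787 to 5.5%. The values of 5.24, 5.37 and 5.5% were those with the block. The IFNγ libraries were not paired (at most 3 of 9 correlations over 0.1), and the block moved no count of the IFNγ comparisons against PBS or between peptides by over 1.5 times.

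Counts of members whose change differed between the cytokines, in the order given in the text, were 4, 2 and 3 with DESeq2, with at least 10 counts and with protein-coding genes only, 4, 3 and 2 with no low count filter, 5, 4 and 4 with the replicate block, and 2 for the second with RLE. Over all alternatives the share of all genes ran from 7.81 to 28.1%, 7.26 to 25.8% and 0.269 to 8.66% in the same order. The causes were not tested.

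Leaving out 1 replicate at a time gave 0 to 1 called members for 65–79*SE against PBS in IFNγ replicates 4–6 (0 without replicate 6), 0 to 2 for 65–79*SE in each Il-4 label set, 0 to 1 for 65–79*PE in Il-4 replicates 1–3 and 0 to 3 in replicates 4–6. The difference of 65–79*PE against PBS between IFNγ label sets held 1 to 3, and the cytokine differences 1 to 3, 0 to 4 and 0 to 2. The 3 libraries of each group and label set limit what could be called. Apoe, Mylip and Nr1h3 had low counts, and the part of this in their results was not tested.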
